A study of Mus musculus with 42 samples.

Results

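The transcripts described here are those of 10 genes of the amino acid response that ATF4 and mTORC1 share: Atf4, Asns, Trib3, Chac1, Ddit4, Sesn2, Psat1, Phgdh, Shmt2 and Mthfd2. All probes that the platform annotation gives to these genes in the authors' normalized table were taken, which gave 13 of 17082 probes. None was picked by its value. The livers came from C57BL6/N mice of 25 months on 1 array per mouse: 10 males and 9 females on the control diet, and 12 males and 11 females on chow with 14 ppm rapamycin (Rapa). Rapa was given from 19 months of age for 6 months, the control chow held the empty capsule material of the Rapa diet, and all mice ate freely. Each group holds separate mice.

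ATF4 is a transcription factor whose messenger RNA is translated when kinases that sense amino acid lack or stress phosphorylate eukaryotic initiation factor 2. Active mTORC1, the kinase complex that Rapa inhibits, also raises ATF4, and ATF4 then turns on genes for making and taking up amino acids. Asns makes asparagine, Phgdh and Psat1 catalyse neighbouring steps of serine synthesis, and Shmt2 and Mthfd2 pass one-carbon units from serine to folate in mitochondria. Chac1 breaks down glutathione, Trib3 is a pseudokinase that restrains Akt and ATF4, and Ddit4 and Sesn2 restrain mTORC1, Sesn2 as a leucine sensor. Because much of the control of ATF4 lies in translation, the level of its messenger RNA is not a measure of the protein.

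Asns, Chac1 and Psat1 varied together among mice, as described further on, and their promoters are shown for the letters of the element that ATF4 and its C/EBP partners bind. The sequences are the 250 bases before the start of each gene on its own strand, from RefSeq annotation of build GRCm38.p6, and capitals mark matches on either strand to TGATGNAA or TGNNGCAA. These motifs overlap, since TGATGCAA fits both, and they were chosen with the results known.
Asns (chr6:7693210-7693459, minus strand): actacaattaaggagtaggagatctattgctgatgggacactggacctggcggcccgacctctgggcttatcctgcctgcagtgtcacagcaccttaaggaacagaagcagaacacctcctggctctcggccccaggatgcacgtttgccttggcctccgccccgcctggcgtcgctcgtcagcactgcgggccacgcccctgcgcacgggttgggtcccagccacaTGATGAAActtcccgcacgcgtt
Chac1 (chr2:119350992-119351241, plus strand): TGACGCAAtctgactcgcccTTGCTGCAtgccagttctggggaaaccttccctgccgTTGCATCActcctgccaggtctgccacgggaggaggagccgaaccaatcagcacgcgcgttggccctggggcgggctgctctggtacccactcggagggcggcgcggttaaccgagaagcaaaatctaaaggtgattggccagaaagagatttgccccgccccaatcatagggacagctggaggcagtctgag
Psat1 (chr19:15925060-15925309, minus strand): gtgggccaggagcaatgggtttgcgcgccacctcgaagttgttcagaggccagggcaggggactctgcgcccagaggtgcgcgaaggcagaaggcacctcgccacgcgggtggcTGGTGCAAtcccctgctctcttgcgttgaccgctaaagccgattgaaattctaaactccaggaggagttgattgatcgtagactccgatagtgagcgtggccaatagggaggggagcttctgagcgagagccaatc
Asns held TGATGAAA beginning 23 bases before its start. Chac1 held 3 matched places, TGACGCAA at 250 bases and, on the opposite strand, TGCAGCAA at 230 and TGATGCAA at 193 bases. Psat1 held TGGTGCAA at 136 bases before the start shown, and no match before its other annotated start. Of the 10 members, all found in the promoter table, 5 held a match to either motif, the others being Trib3 (TGGTGCAA) and Sesn2 (TGCTGCAA on the opposite strand). Atf4, Ddit4, Phgdh, Shmt2 and Mthfd2 held none, although Ddit4 and Mthfd2 also varied together with the genes shown. A match therefore did not set apart the members that varied together. Among 32851 promoters of this length, 12.1% held a match to either motif, 3.45% to TGATGNAA and 9.59% to TGNNGCAA. These shares count promoters, whereas the members were counted by gene, with Psat1 counted for a match before either start. A match is a description of letters and no evidence of binding.

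Levels are log2 values of the deposited signal after quantile normalization over 42 arrays, and a probe was taken as detected at a detection p under 0.05. With limma, 12719 probes that at least 9 arrays detected (as many as the smallest group holds) were tested, and a difference was called at a Benjamini-Hochberg adjusted p under 0.05 with an absolute log2 ratio over 0.15. Of the 13 member probes, 10 probes of 8 genes were tested. The arrays of females were dimmer than those of males, with median signals of 111 to 154 against 146 to 188, and 9519 to 11581 against 11254 to 12585 probes detected. The sexes also separated on never-detected probes. Female results are also given without control females 6 to 9, whose arrays differed from those of the remaining control females. Rapa female arrays were uneven too, with a background (signal of the dimmest probes) of 78.4 to 80.3 in mice 1 to 4. In Rapa females 5 to 11 it was 102.4 to 107.7, and in control females 76.5 to 89.7. Leaving out control females 6 to 9 therefore does not even out the arrays of the female diets. No source used here gives slides or hybridization days. The 11 tested hepatocyte markers of 14 had mean levels of 13.7 to 14.1 in every mouse, so the tissue label matched its markers. In bulk liver, fewer cells of a type and less RNA per cell cannot be told apart.

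Atf4 and both Shmt2 probes were detected on all 42 arrays, as were Chac1 and Ddit4. Trib3 was detected in 8 of 10 males and 6 of 9 females on the control diet and in 11 of 12 males and 9 of 11 females on Rapa, and Psat1 in 5, 2, 6 and 5 mice of these groups. The brightest Asns probe (probe 1) was detected in 9 control males and 10 Rapa males but in only 2 control females and 4 Rapa females. Sesn2 was detected in 8 control males, 4 Rapa males and no female. Phgdh was detected on 7 arrays, Mthfd2 on 3 and the dimmest Asns probe on 0, and these 3 probes were not tested. For Phgdh and Mthfd2, differences between the groups were therefore not detectable at this signal over background.

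**Figure D1:**
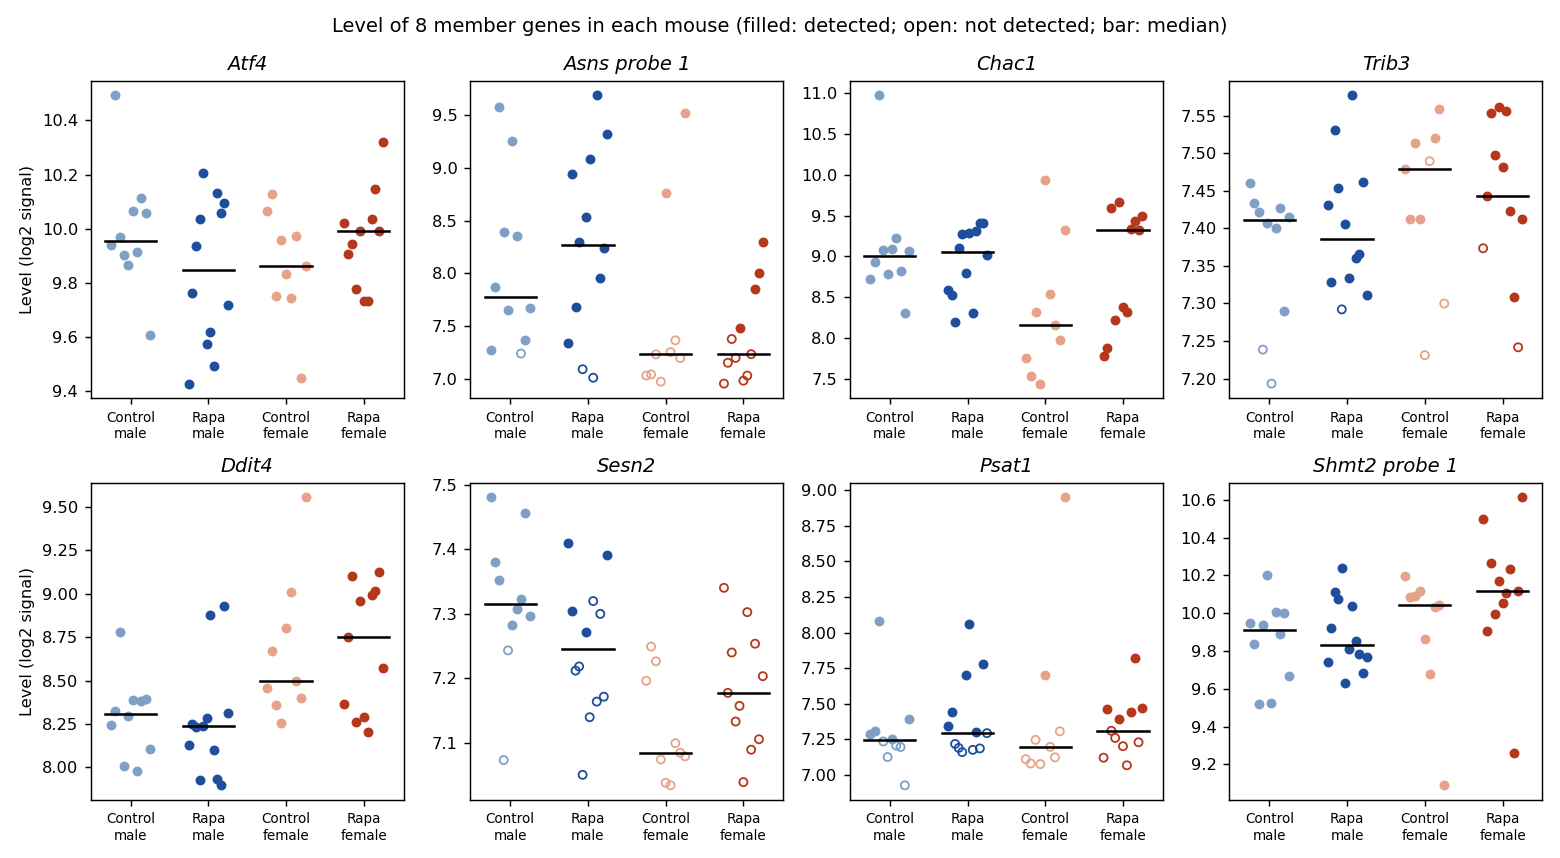
Level (log2 signal, vertical axis) of the brightest probe of 8 members in each of the 42 mice, by group, with filled points for detected and open points for not detected probes and a bar at the group median. Asns and Chac1 spread over more than 2 log2 units, Asns and Sesn2 were mostly not detected in females, and the groups overlapped in every panel.

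Between Rapa and control females none of the 10 tested member probes was called, where 21.6% of all tested probes were. The median log2 ratio of the member probes was 0.017 against 0.023 over all tested probes. In males 0 of 10 were called as well, against a background of 0.653%, with a median of 0.002 against −0.005. No member was called for a difference between the sexes in its Rapa effect, where 20.4% of all probes were called. Without control females 6 to 9 the female count was again 0 of 10, with 7.01% of all probes called. The intervals below show how large a change these data leave possible.

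The level of Atf4, the regulator itself, lay between 9.61 and 10.49 in control males (median 9.95) and between 9.43 and 10.20 in Rapa males (median 9.85). In females it ran from 9.45 to 10.13 on the control diet (median 9.86) and from 9.73 to 10.32 on Rapa (median 9.99). The 4 groups lay over one another, and control male 2 was the highest mouse. The log2 ratio of Rapa to control was 0.10 in females (SE 0.099, 95% interval −0.098 to 0.30, adjusted p = 0.496) and −0.16 in males (SE 0.094, interval −0.35 to 0.035, adjusted p = 0.516). Both intervals leave out a change of 0.5 in either direction. The male value was sensitive to the scaling: with each array centred on its median instead of quantile normalization, it was −0.38 (SE 0.099, adjusted p = 0.00903). The median male ratio of all tested probes was then −0.13.

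A brighter probe without a gene in the platform annotation, which the study names Atf4 in its annotation of another cohort, was examined outside the rule, as a check on the Atf4 value. Control females had levels of 11.48 to 12.29 (median 11.72), and Rapa females of 11.41 to 11.77 (median 11.49). It ran from 11.29 to 12.02 in control males (median 11.61) and from 11.28 to 11.98 in Rapa males (median 11.63). All 11 Rapa females lay below the mean of the control females, with ranges that overlapped, and the log2 ratio was −0.25 (SE 0.092, adjusted p = 0.0395). That call was lost without control females 6 to 9 (−0.05, adjusted p = 0.833) and on leaving out any of 10 single mice (control females 6, 7, 8 and 9 and Rapa females 1, 3, 4, 6, 7 and 11), with ratios of −0.25 to −0.19. The correlation of both Atf4 probes over 42 mice, as deviations from group means, was 0.47, and their female ratios had opposite signs.

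Asns, which makes asparagine, had the widest spread of the members. Probe 1 ran from 7.24 to 9.58 in control males (median 7.77) and from 7.02 to 9.68 in Rapa males (median 8.27). In females the level was 6.98 to 9.51 on the control diet (median 7.24) and 6.96 to 8.30 on Rapa (median 7.24). Most females sat at the level of undetected probes, and the highest were control females 5 (8.76) and 9 (9.51) and Rapa female 11 (8.30). The Rapa ratio was −0.18 in females (SE 0.34, adjusted p = 0.749) and 0.20 in males (SE 0.32, adjusted p = 0.862). The female ratio turned to 0.058 without control female 9, and the male one fell to 0.069 without Rapa male 9 and turned to −0.44 with 3 principal components of never-detected probes as covariates. With intervals of −0.86 to 0.50 and −0.45 to 0.85, sizeable changes in either direction remain possible. Asns probe 2, dimmer and not detected in any female, gave −0.036 and 0.063, and followed probe 1 among mice with an r of 0.88.

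Chac1, the glutathione-degrading enzyme, was the member with the largest female ratio. Control females ranged from 7.45 to 9.94 (median 8.16), and Rapa females from 7.78 to 9.66 (median 9.33). Rapa females fell into 5 mice at 7.78 to 8.38 and 6 mice at 9.33 or above, and among control females only mice 5 (9.94) and 9 (9.32) were above 9. The log2 ratio was 0.52 (SE 0.29, 95% interval −0.069 to 1.12, adjusted p = 0.201), and 7 of 11 Rapa females lay above the control mean. In males Chac1 was 8.31 to 10.97 in controls (median 9.00) and 8.20 to 9.41 on Rapa (median 9.06), with a ratio of −0.17 (SE 0.28, adjusted p = 0.868). Control male 3 was the highest of all mice at 10.97, and the next control male was at 9.23, and without this mouse the ratio turned to 0.042. The difference between the sexes in the effect, 0.69, did not pass the test. It did so only with the 3 principal components as covariates (1.85, adjusted p = 0.0185), components that themselves separate the sexes.

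Both restrainers of mTORC1 and Trib3 had small ratios. For Ddit4 the females lay at 8.25 to 9.56 on the control diet (median 8.50) and 8.20 to 9.13 on Rapa (median 8.75), and the males at 7.98 to 8.78 (median 8.31) and 7.90 to 8.93 (median 8.24). The diets overlapped in both sexes. Its ratios were 0.028 in females (SE 0.15, adjusted p = 0.919) and −0.031 in males (SE 0.14, adjusted p = 0.961). Sesn2, measured close to background, had ratios of 0.066 and −0.073 with standard errors of 0.048 and 0.045. Trib3 lay between 7.19 and 7.58 in all mice, and its ratios were 0.006 in females and 0.036 in males, with intervals of −0.089 to 0.10 and −0.054 to 0.13. For these dim probes a ratio understates a change of the transcript, because background makes up much of the signal.

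Among the enzymes of serine and one-carbon metabolism, Shmt2 was the brightest. Its probe 1 ran from 9.09 to 10.20 in control females (median 10.04), and on Rapa the females ran from 9.26 to 10.61 (median 10.12). In males it was 9.52 to 10.20 in controls (median 9.91) and 9.63 to 10.24 on Rapa (median 9.83). The ratio was 0.20 in females (SE 0.12, adjusted p = 0.25, 9 of 11 Rapa females above the control mean) and 0.035 in males. Shmt2 probe 2 gave −0.047 and −0.073, so the probes differed in sign in females, and their r among mice was 0.64. Psat1 levels of control females were 7.08 to 8.95 (median 7.20) and of Rapa females 7.07 to 7.82 (median 7.31), with a ratio of −0.079 (SE 0.16, adjusted p = 0.774) that turned to 0.11 without control female 9. Control males were at 6.93 to 8.08 (median 7.24) and Rapa males at 7.16 to 8.06 (median 7.30), which gave 0.10 (SE 0.15, adjusted p = 0.846).

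**Figure D2:**
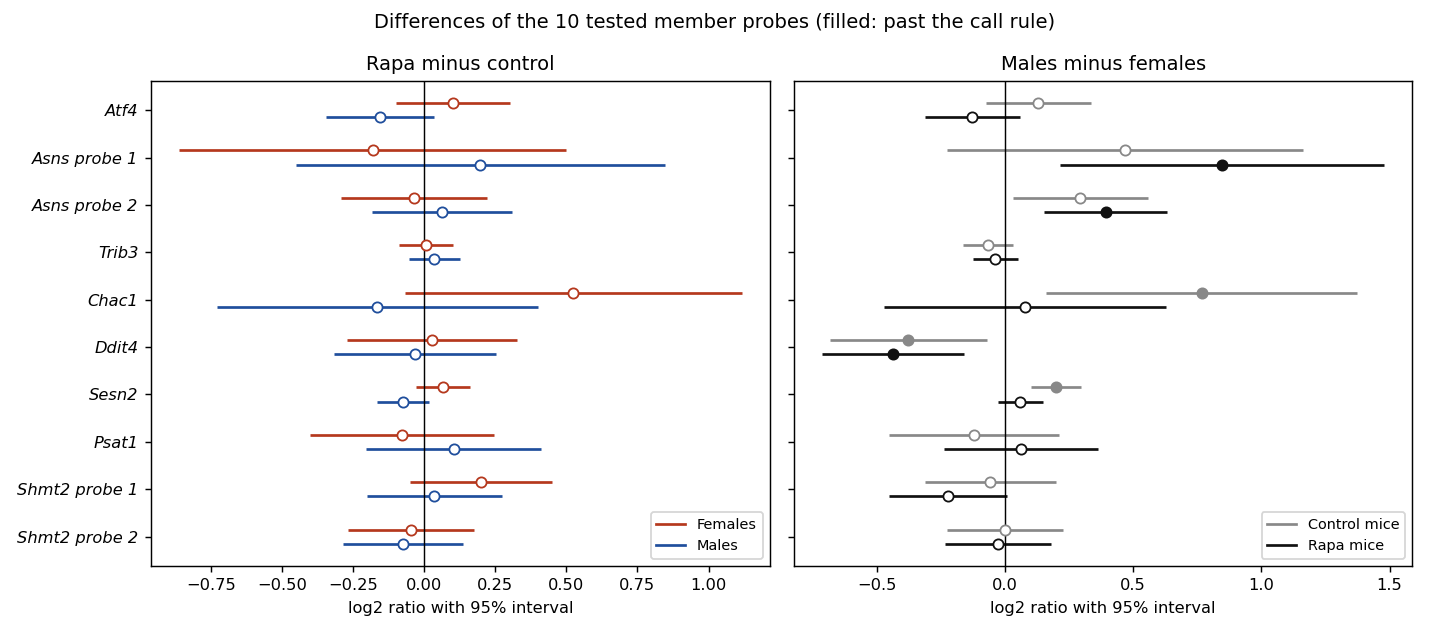
Log2 ratios (points) with 95% intervals (lines) of the 10 tested member probes, Rapa minus control in females and males (left) and males minus females in control and Rapa mice (right), filled where the difference was called. No point is filled on the left, where Chac1 in females is farthest from 0 at 0.52, and 3 are filled for each diet on the right.

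Between the sexes, 3 of the 10 member probes (Chac1, Ddit4 and Sesn2) were called in control mice, where 40.2% of all tested probes were. In Rapa mice 3 of 10 were called (Ddit4 and both Asns probes), where 32.2% of all tested probes were. The share of members called was therefore near or below that of the array as a whole. Ddit4 was lower in males on both diets, by a log2 ratio of −0.38 in controls (SE 0.15, adjusted p = 0.042, 9 of 10 control males below the female mean) and −0.44 in Rapa mice (SE 0.14, adjusted p = 0.0122, 10 of 12). Among control mice Chac1 was higher in males (0.77, SE 0.30, adjusted p = 0.0368, 9 of 10 males above the female mean) and was 0.078 apart in Rapa mice (adjusted p = 0.852). Asns probe 1 was higher in Rapa males than in Rapa females (0.85, SE 0.31, adjusted p = 0.0318, 9 of 12), and probe 2 gave 0.39 (adjusted p = 0.00862). In control mice probe 1 gave 0.47 with a SE of 0.34 (adjusted p = 0.277). Sesn2 was also called in control mice (0.20, SE 0.049, adjusted p = 0.000993). Sesn2 and Asns probe 2 were detected in no female and passed the detection filter through males alone, so their calls are no support for a difference. Their true ratios were not measured. In Sesn2 the control male mean (7.32) lay below the mean lowest detected level of control female arrays (7.42). In Asns probe 2 the Rapa male mean (7.33) lay below that of Rapa female arrays (7.38). All of these groups overlapped.

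Several of these sex calls lay close to the threshold. The Chac1 call was lost on leaving out any of 7 mice (control males 3 and 7 and control females 1, 2, 4, 7 and 8), with ratios of 0.56 to 0.75 and adjusted p of 0.0504 to 0.0944, the lowest ratio without control male 3. The Ddit4 call in controls was lost without any of 10 mice (control males 1, 2, 4, 5, 7 and 10 and control females 2, 5, 6 and 9), with ratios of −0.38 to −0.27 and adjusted p of 0.0506 to 0.134, the smallest change without control female 9. In Rapa mice the Ddit4 call held without any 1 mouse, while that of Asns probe 1 was lost without any of 6 (Rapa males 2, 7, 9 and 12 and Rapa females 1 and 6), with ratios of 0.72 to 0.80 and adjusted p of 0.0505 to 0.0649. Without control females 6 to 9, Chac1 gave 0.90 (adjusted p = 0.0633) and Ddit4 −0.22 (adjusted p = 0.348) in controls. With the 3 principal components of never-detected probes as covariates no member was called between control males and control females, Ddit4 turned to 0.31 and Sesn2 to −0.57. The share of all probes called with these covariates is not given here. In Rapa mice the same covariates ended the calls of Ddit4 (−0.075, adjusted p = 0.964), Asns probe 1 (1.22, adjusted p = 0.679) and Asns probe 2 (0.90, adjusted p = 0.335), and Sesn2 was called with its sign turned (−0.57, adjusted p = 0.0458).

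The mice of a group differed from one another more in some members than in most tested probes. The within-group SD of Asns probe 1 was 0.78, and only 1.13% of the 12719 tested probes had a larger one. For Chac1 it was 0.68 (1.81% larger), for Psat1 0.37 (9.15%) and for Ddit4 0.34 (11.3%), against a median of 0.17 over all tested probes. Atf4 itself had an SD of 0.22, which 29.8% of probes exceeded. Sesn2 and Trib3, both near background, had SDs of 0.10 and 0.098.

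To see whether the members moved together among mice of the same sex and diet, deviations of the brightest probe of each gene from its group mean were correlated over 42 mice. Of 45 pairs, 16 passed a permutation of mice within groups after Benjamini-Hochberg adjustment, 11 positive and 5 negative, and 14 passed with Spearman's rho. Among the members, 10 of the 45 pairs had r over 0.5 and 2 had r under −0.5, compared with 3.14% and 2.68% of all pairs of tested probes. Some members varied with a larger share of the array. Psat1 had r over 0.5 with 10.8% of all tested probes, Ddit4 with 7.29%, Chac1 with 7.03%, Shmt2 with 5.99% and Asns with 5.69%. For Atf4, Trib3 and Sesn2 it was 0.409%, 0.283% and 0.118%. No member was among the 8 genes most like any tested member. The positive pairs were the 6 among Asns, Chac1, Psat1 and Ddit4, Mthfd2 with Asns, Chac1 and Psat1, and Phgdh with Psat1 and Ddit4, though Mthfd2 and Phgdh were mostly not above background. Psat1 too was detected in only 5 of 10 control males, 2 of 9 control females, 6 of 12 Rapa males and 5 of 11 Rapa females. Asns was detected in only 2 control females and 4 Rapa females. Much of the variation in these pairs was thus measured close to background. Shmt2 moved against Psat1, Asns, Ddit4 and Mthfd2, and Trib3 against Asns. Without control male 3 and control female 9, which were high in several members, 5 pairs no longer passed: Asns with Ddit4 (0.43 to 0.22, adjusted p = 0.321), Asns with Shmt2 (−0.49 to −0.29, adjusted p = 0.161), Ddit4 with Shmt2 (−0.49 to −0.30, adjusted p = 0.285), and Phgdh with Psat1 (0.27) and Ddit4 (0.23). Without control females 6 to 9, Asns with Ddit4 (0.32, adjusted p = 0.14), Ddit4 with Shmt2 (−0.31, adjusted p = 0.218) and both Phgdh pairs (0.36 and 0.35) did not pass. No pair with Atf4 or Sesn2 passed, and the r of Atf4 with the other members lay between −0.24 and 0.17.

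Asns and Chac1 had an r of 0.66 (rho 0.68, adjusted p = 0.0003 by permutation). Within groups it was 0.79 in males and 0.87 in females on the control diet, and 0.37 and 0.71 on Rapa. It was 0.56 without the 2 mice farthest in Asns and 0.55 without control male 3 and control female 9. In the same mice Psat1 had an r of 0.61 with Chac1 (adjusted p = 0.00197), 0.66 with Asns (adjusted p = 0.00081) and 0.71 with Ddit4 (rho 0.54, adjusted p = 0.000337).

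Psat1 and Shmt2, enzymes of the same serine pathway, moved in opposite directions, with an r of −0.69 (rho −0.58, adjusted p = 0.000225 by permutation). The sign was the same within all groups, at −0.67 in males and −0.91 in females on the control diet, and at −0.59 and −0.58 on Rapa. Psat1 was detected in only 2 of the 9 control females. Control female 9 had both the highest Psat1 (8.95) and the lowest Shmt2 (9.09), and Rapa female 9 the highest Psat1 (7.82) and lowest Shmt2 (9.26) of its group. Without the 2 mice farthest in Psat1 the r was −0.53, and without control male 3 and control female 9 it was −0.51 (adjusted p = 0.006). The relation of Psat1 with Phgdh, the enzyme before it in serine synthesis, had an r of 0.70, rho of 0.41 with an adjusted p of 0.0666, and fell to 0.34 without the 2 mice farthest in Psat1, so it rested on those mice.

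**Figure D3:**
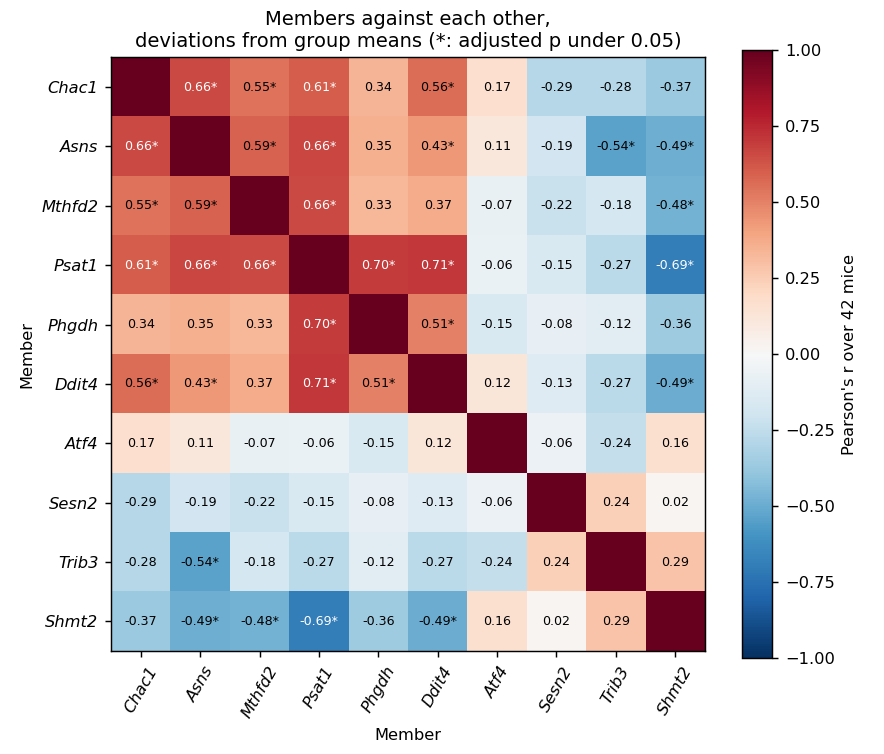
Pearson's r between the 10 members over 42 mice, from deviations of the brightest probe of each gene from its group mean (colour and numbers), with stars for an adjusted permutation p under 0.05. The block of positive values holds Chac1, Asns, Mthfd2, Psat1, Phgdh and Ddit4, and the row of Shmt2 is negative against 4 of them with stars, down to −0.69 with Psat1.

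The genes most like each member over the 42 mice, named with no test, were Itih3 and Cxcl1 for Chac1 (r of 0.87 each), Uhrf1 and Lat2 for Psat1 (0.93 each), and Scara5 (0.78) and Snrpa1 (0.75) for Asns. For Ddit4 they were Arhgap1 (0.82) and Mmgt2 (0.78), and for Shmt2 Fpgs (0.80) and AU022252 (0.79). Itih3 is a plasma protein of the acute phase made by hepatocytes, Cxcl1 a chemokine for neutrophils, and Uhrf1 a protein of DNA replication. Without control male 3 and control female 9, the r was 0.83 and 0.85 for the Chac1 pair and 0.90 and 0.78 for the Psat1 pair. Atf4 was most like Tirap (0.66) and Srm (0.65), Trib3 most like Frmpd4 (0.61) and Hdac11 (0.57), and Sesn2 most like Klhl5 and Rdh9 (0.58 each).

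Markers of blood-derived cells were set beside these members. The mean level of 11 of 15 neutrophil markers ran from 7.49 to 8.84 in control males, from 7.72 to 12.31 in their female counterparts, and on Rapa from 7.73 to 9.26 in males and from 7.63 to 11.86 in females, and of the other markers Cxcr2 and Il1r2 were detected on too few arrays to be tested, while Ly6g and Mmp8 were not analysed here. The summed signal of the list was 2212 to 50707 in males and 3060 to 131168 in females on the control diet, and 3781 to 29183 and 3114 to 88043 on Rapa. In females the mean fell into 12 mice at 8.75 or below and 8 mice at 10.19 or above (3 control and 5 Rapa), so no pooled correlation is given. Within the males the r with Asns was 0.64 (rho 0.59, adjusted p = 0.0384 by permutation over 30 relations), and 0.49 without the 2 farthest mice. For Chac1 it was 0.61 in males, 0.52 in the 8 females above the gap and 0.73 in the 12 below it (adjusted p of 0.0624, 0.509 and 0.0665), so Asns in males was the only 1 of the 30 that passed by Pearson's r, and by rank it did not (adjusted p = 0.059). By rank only Mthfd2 in the females above the gap passed (rho 0.98, adjusted p = 0.042), though it was detected in no female. The part of these cells in the variation of the members was not tested.

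Psat1 followed the lymphocyte lists, with an r of 0.79 for 5 of 14 T and NK cell markers (rho 0.66, adjusted p = 0.001 by permutation over 100 relations) and 0.78 for 7 of 11 B and plasma cell markers (rho 0.45, adjusted p = 0.00311). Without control male 3 and control female 9 these were 0.52 and 0.27, so the relation with the B cell list rested on those mice. The mean level of the B and plasma cell markers was 8.95 in control male 3 and 9.95 in control female 9, the highest of their groups, whose medians were 7.43 and 7.81. In Rapa mice the list ran from 7.29 to 7.68 in males and from 7.41 to 7.86 in females, and its summed signal was 1050.4 to 5272 in males and 1245 to 9262 in females on the control diet, and 1112 to 1513 and 1233 to 1721 on Rapa. Igj, Blnk and Ighm were among its markers that were not tested. The T and NK list summed to 700.04 to 1204, 750.2 to 2069, 719 to 1517 and 683 to 961 in the same order, and 9 of its markers, Cd4 and Cd8a among them, were not tested. Ddit4 followed 3 of 8 bile duct markers, Krt7, Sox9 and Muc1 (r = 0.70, rho 0.73, adjusted p = 0.00025, and 0.67 without those mice), as did Chac1 (0.57, adjusted p = 0.000857, and 0.45) and Asns (0.56, adjusted p = 0.00231, and 0.46). The mean level of this list was only 7.28 to 7.93 over the arrays, near the mean lowest detected levels of female arrays (7.42 control, 7.38 Rapa). Its markers Krt19, Epcam, Spp1, Cldn4 and Cftr were not tested. Asns also passed with the T and NK list (0.49, adjusted p = 0.0235), the B and plasma cell list (0.49, adjusted p = 0.0238) and the macrophage list (0.39, adjusted p = 0.0373), which without those mice were 0.19, 0.049 and 0.33. Chac1 followed the macrophage list as well (0.52, adjusted p = 0.00231, and 0.47 without them). Of the 70 relations of the members with the 7 marker lists other than neutrophils, 31 passed, 26 positive and 5 negative. Of these, 0 were with hepatocyte markers. The share of all tested probes that pass with these lists is not given here, so the count is not a result about the members. None of the 20 relations of members with array background or the number of probes detected passed. The part of lymphocytes, macrophages and bile duct cells was not tested.

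**Figure D4:**
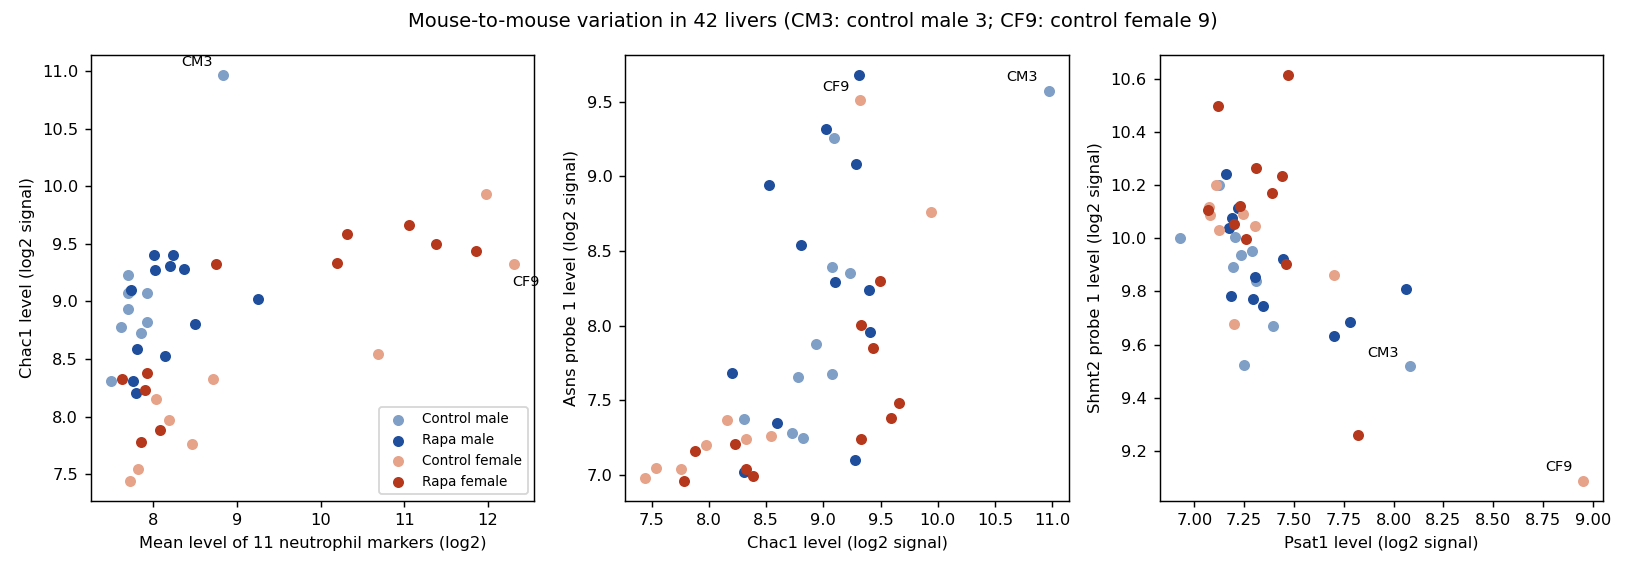
Each point is 1 of 42 mice, coloured by group, with log2 levels on all axes: Chac1 against the mean of 11 neutrophil markers (left), Asns probe 1 against Chac1 (middle) and Shmt2 probe 1 against Psat1 (right). Females divide into a lower and a higher part on the left horizontal axis, the middle panel has an r of 0.66 and the right one of −0.69 from deviations from group means, and control male 3 and control female 9 are marked.

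Other genes of the pathway were taken from lists of known functions, with the brightest probe of each gene. Among 23 tested of 34 other ATF4 target genes, Rapa females had 4 higher and 3 lower, against 11.5% and 9.28% of all genes, and males had none, against 0.202% and 0.371%. The median female ratio of the list was −0.03. The lowest adjusted p was that of Slc3a2, the heavy chain of amino acid exchangers that carry leucine and cystine. Control females lay at 7.78 to 8.66 (median 8.00) and Rapa females at 7.03 to 7.33 (median 7.19), and males at 7.30 to 7.77 on the control diet (median 7.53) and 7.56 to 7.77 on Rapa (median 7.66). The female groups did not overlap. Slc3a2 was not well above background in any Rapa female, so the difference is at least 1.77-fold, and at least 1.43-fold without control females 6 to 9, taking for each Rapa female the lowest detected level of its array (fitted log2 ratio −1.03, SE 0.087, adjusted p = 2.88e-11, and −0.73 without control females 6 to 9, adjusted p = 2.18e-10). In males the ratio was 0.14 (SE 0.082, not called), and the difference between the sexes in the effect passed the test (adjusted p = 3.07e-09).

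Of the other called ATF4 targets, Herpud1 of the endoplasmic reticulum (0.53, adjusted p = 0.00357) and Ppp1r15a, which directs dephosphorylation of initiation factor 2 (0.29, adjusted p = 0.00106), were higher in Rapa females, and the autophagy gene Map1lc3b was lower (−0.49, adjusted p = 0.0123). Map1lc3b lost its call without control females 6 to 9 (−0.10), as did Ppp1r15a (0.22, adjusted p = 0.0744). The list then held 1 higher and 1 lower, against 2.25% and 4.36% of all genes.

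Among 14 tested of 20 kinases and regulators of initiation factor 2, 4 were higher and 1 lower in Rapa females, against 11.5% and 9.28% of all genes, and 1 and 0 without control females 6 to 9, against 2.25% and 4.36%. Eif2s3x, a subunit of the factor, had a ratio of 0.58 (adjusted p = 0.000105, and 0.53 with adjusted p = 0.00991 without those mice), Eif2b5 of its exchange factor 0.26, Dele1, which relays mitochondrial stress, 0.27 and Impact, an inhibitor of the kinase GCN2, 0.29. The latter 3 lost their calls without those mice (Eif2b5 0.12, adjusted p = 0.231, Dele1 0.085, adjusted p = 0.443, and Impact 0.27, adjusted p = 0.104). Among 20 tested of 29 other serine and one-carbon enzymes, 2 were higher and 2 lower, against the same 11.5% and 9.28%. Dld, the dehydrogenase of the glycine cleavage system, was −0.79 (adjusted p = 0.00017) with female groups that did not overlap, and Dmgdh, which demethylates dimethylglycine, was −0.68 (adjusted p = 0.00155). Both calls held without control females 6 to 9 (−0.73 and −0.64), whereas those of Gart (0.36, purine synthesis) and Aldh1l1 (0.45, cytosolic folate) did not. In males 0 of these genes was called.

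Among 31 tested of 40 genes of amino acid sensing upstream of mTORC1, 6 were higher and 6 lower in Rapa females, against 11.5% and 9.28% of all genes, and 0 in males, against 0.202% and 0.371%. Without control females 6 to 9 they were 2 and 3, against 2.25% and 4.36%. Lamtor2, of the Ragulator complex on lysosomes, was lower in Rapa females, at 9.07 to 10.02 (median 9.76) against 9.95 to 10.88 (median 10.33), a ratio of −0.62 (SE 0.092, adjusted p = 2.99e-06). Rraga, a Rag GTPase, gave −0.36 (adjusted p = 4.15e-06) but was detected in 1 control female and no Rapa female. It passed the detection filter through males (2 control and 9 Rapa). Its control female mean (7.27) lay below the mean lowest detected level of Rapa female arrays (7.38). The Rraga call, included in the counts of lower genes, is therefore no support for a difference. Seh1l of the GATOR2 complex was higher (0.38, adjusted p = 4.34e-06), as was Mtor (0.43, adjusted p = 0.000119), and the Mtor call was lost without control females 6 to 9 (0.28, adjusted p = 0.052). Among 21 tested of 36 amino acid transporters, 2 were higher and 4 lower, Slc3a2 included, against the same 11.5% and 9.28%. The mitochondrial carrier Slc25a13 gave −0.75 (adjusted p = 8.48e-06), also called without those mice (−0.73), and Slc38a4 (−0.74), a carrier of neutral amino acids, and Slc7a2 (0.52), of cationic ones, lost their calls.

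In males, where no gene of these lists was called, the lowest adjusted p belonged to Herpud1 (−0.36, adjusted p = 0.201) and Got1 (0.31) among ATF4 targets, to Ppp1r15b (−0.21, adjusted p = 0.145) and Eif2b1 (−0.23) among regulators of initiation factor 2, and to Dmgdh (0.41, adjusted p = 0.215) and Pipox (0.25) among one-carbon enzymes. They were Rraga (0.17, adjusted p = 0.128) and Lamtor2 (0.18) among sensing genes, and Slc1a2 (−0.75, adjusted p = 0.166) and Slc38a4 (0.43) among transporters. Of the marker lists, 2 of 11 hepatocyte markers (Tdo2 and Alb) and 3 of 11 sinusoidal endothelial markers (Gpr182, Lyve1 and Clec4g) were lower in Rapa females. So were Adgre1 of 11 macrophage and Col3a1 of 11 stellate cell markers. In this comparison 9.28% of all genes were lower, so these few calls are no result about a cell type. No neutrophil, T and NK, B and plasma or bile duct marker was called. Without control females 6 to 9 only 1 hepatocyte marker was called, as lower, against 4.36% of all genes.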

How the data were processed

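The authors hybridized liver RNA of 42 mice to Illumina Mouse Ref8 v2 arrays and deposited each probe's bead intensity (25697 probes, not normalized) with its detection score from Genome Studios, a fraction, and 1 minus this score is the detection p. The authors also deposited log2 values, quantile-normalized by them, for 17082 probes, which served as an alternative. The signals showed no background subtraction (lowest 51.4). Here log2 signals were quantile-normalized, and 12719 probes detected (p under 0.05) on at least 9 arrays were fitted with limma 3.58.1 (statmod 1.5.0) in R 4.3.3 over all 42 arrays and 4 group means, with Benjamini-Hochberg adjustment over all tested probes. Every adjusted p of a single probe is limma's. Other marker and pathway lists took the brightest probe of a gene.

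The members, lists and tests were chosen with earlier results of these data known. Named are all member probes, up to 4 called genes of each pathway list by lowest adjusted p in females and 2 in males (the lowest where none was called), called markers, and the 2 genes most correlated with each tested member. Correlations were permuted within groups 100000 times, two-sided, in Python 3.11.15 with numpy 2.4.6 (1e-05 is the smallest p these give). Replicate numbers in the labels were not used as pairs in the main fit. The script for the fit was tested on simulated data. Alternatives were other scalings, filters, tests, weights, blocks and thresholds and leaving out each mouse; leaving out control females 6 to 9, the covariates from never-detected probes and leaving out control male 3 with control female 9 were chosen after seeing the data. Symbols come from the platform annotation, which can be old, and promoters from RefSeq (GRCm38.p6). The number of arrays limits the precision.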

Additional observations from a re-analysis of the deposited data

Results flagged for a closer look

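Of 28 groups of 9 or 10 mice examined for a single mouse far from the rest, 6 held one. About 1 in 20 sets is expected to by chance, but the sets share the same mice and are not separate units, so the 6 cannot be held against that rate. Groups of 11 and 12 mice were not examined. Control male 3 was the highest of its group in Chac1 (10.97, the next mouse at 9.23), Ddit4 (8.78, next 8.40) and Psat1 (8.08, next 7.40). Control female 9 was the highest in Psat1 (8.95, next 7.70) and Phgdh (7.77, next 7.35), and the lowest in Shmt2 probe 1 (9.09, next 9.68). Each of these values was detected on its array.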

How the results depend on the processing

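The count of members called between Rapa and control females was 0 under all 14 other settings and without any 1 mouse, and for males it was 0 except with median centring, which gave 1 (Atf4). The difference of the Rapa effect between the sexes gave 0 called members except 3 with median centring (Atf4 0.56, Sesn2 0.17 and Shmt2 probe 1 0.47) and 1 with the 3 principal components of never-detected probes (Chac1). With median centring the median ratio of all tested probes was 0.06 in females, −0.13 in males and 0.19 in their difference. In the main fit these medians were 0.023, −0.005 and 0.031. The share of higher among called probes moved from 28.9% to 0.675% in males and from 58.3% to 85.6% in the difference. Between control sexes it moved from 55.9% to 76.4%, and between Rapa sexes from 49.2% to 34.5%. The share of all probes called is not given beside these counts or those below, so a changed count is not a result about the members.

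Between control males and females the count of 3 became 1 with the methods' t-test, 1 with neighbouring animal numbers as a random block, 1 without control females 6 to 9, 0 with the components and 0 at an adjusted p under 0.01 with a log2 ratio over 1. It was 1 to 4 without 1 mouse. Between Rapa males and females the count of 3 became 1 among probes detected on all arrays, 1 with the components (Sesn2, not among the 3) and 0 at that stricter threshold, and 2 to 4 without 1 mouse. Values that were called on either side and changed sign were Ddit4 (0.31) and Sesn2 (−0.57) between control sexes and Sesn2 (−0.57) between Rapa sexes, all with the components, which also separate the sexes. Values called under neither setting crossed 0 too, between control sexes Trib3 (to 0.12), Psat1 (to 0.071) and both Shmt2 probes (to 0.17 and 0.79), and between Rapa sexes Trib3 (to 0.18), Psat1 (to −0.098), Chac1 (to −0.030) and Shmt2 probe 2 (to 0.77). The cause was not tested. The correlations gave 16 passing pairs and 11 to 21 under the 5 alternatives.

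Same-numbered mice did not deviate together in every pair (6 of 10, 6 of 9, 3 of 9 and 4 of 11 pairs had a correlation over 0.1). The median correlation was 0.14 for control with Rapa males and 0.38 for control with Rapa females. It was −0.012 for control males with control females and 0.0058 for Rapa males with Rapa females. Whether the numbers stand for a shared order was not tested. With the replicate block the counts were 0 in females, 0 in males, 0 for the difference, 3 between control sexes and 2 between Rapa sexes. Signal over background limits Asns probe 2, Sesn2, Psat1, Trib3, Phgdh and Mthfd2.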
